A study of Mus musculus with 6 samples.

Results

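The 10 genes described here were measured in the liver tumors of wild-type and Nr2e3-/- mice because they lie beside Nr2e3 on chromosome 9. They were chosen by name as neighbors of the knocked-out locus, and the rows with their symbols were taken from the table of raw counts. All 10 were found among the 24063 genes of the table, and 7 of them were among the 13572 genes that passed the filter on low counts. In order along the chromosome they are Arih1, Hexa, Celf6, Parp6, Senp8 and Myo9a on the side of lower coordinates, then Nr2e3 itself, and Thsd4, Lrrc49, Larp6 and Uaca on the other side. From Arih1 to Uaca they span 1492 kb of the mouse genome (build GRCm38). The samples were liver tumors from 3 WT (NR2E3+/+) and 3 Nr2e3-/- (NR2E3-/-) male C57BL/6 mice, with 1 sequencing library per tumor. Mice of both genotypes received the liver carcinogen diethylnitrosamine (DEN) at 15 days of age, at 25 mg per kg, and tumors were taken at the 24-week time point. How the knockout allele is built, the strain in which it was made and whether any of the mice were littermates are not given in the sources used here.

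Nr2e3 encodes an orphan nuclear receptor, best known for its role in photoreceptors. In a knockout mouse, genes close to the target can differ from those of control mice for reasons other than the loss of the protein. Removing sequence can take away regulatory elements of a neighbor, and the chromosome segment around the target is inherited with it, so alleles of the strain in which the knockout was made can persist there. The neighbors of Nr2e3 have varied roles. Thsd4 encodes a secreted protein of fibrillin microfibrils, Senp8 a protease that acts on the ubiquitin-like protein Nedd8, and Arih1 a ubiquitin ligase that works with neddylated cullins. Hexa encodes the alpha subunit of the lysosomal enzyme beta-hexosaminidase, Myo9a a myosin that carries a GTPase-activating domain, and Parp6 a member of the ADP-ribosyltransferase family.

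Total counts were between 25250090 and 28690279 in the WT libraries and between 15376261 and 28336305 in the Nr2e3-/- libraries. Nr2e3 (59942771 to 59960659, minus strand) had 0 counts in all 6 libraries, as had Gm7616, an annotated antisense gene that overlaps it, so the genotype could not be checked from the target. A count of 0 allows up to 3 counts, which is 0.101 to 0.199 normalized CPM depending on the library. Normalized CPM, called CPM from here on, are counts per 1e6 of the library total after TMM scaling. This limit covers counting error only. Nr2e3-/- replicate 1, the library with the fewest counts, stood apart from its group. Across the genes tested, its log2 levels correlated with those of the WT libraries at a median r of 0.978 and with those of the other Nr2e3-/- libraries at 0.959. Values without it are given below. The hepatocyte markers (Alb, Apoa1, Ttr, Serpina1a, Cyp2e1 and Hnf4a), of which Alb gave most, summed to between 122922 and 154317 CPM in WT and between 106537 and 126344 CPM in Nr2e3-/- libraries. Among them Hnf4a had a mean of 815 CPM in WT and 1151 CPM in Nr2e3-/- libraries, without overlap (edgeR adjusted p 0.174). Groups did not overlap for 1 of these 6 markers (16.7%), where they did not for 26.8% of all genes tested.

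The genotypes were compared by the quasi-likelihood test of edgeR, with Benjamini-Hochberg adjustment over all genes tested. Of the 7 flanking genes tested, 0 had an adjusted p-value under 0.05 in edgeR and 1, Thsd4, had an unadjusted p-value under 0.05. Over all genes tested, 0.0958% had the former and 21.5% the latter. DESeq2 called 1 of the flanking genes by adjusted p-value, again Thsd4, where it called 7.93% of all genes. The limma-voom fit, run with quality weights per library, called 0, where it called 17.4%. Without Nr2e3-/- replicate 1, edgeR called 1, Arih1, by adjusted p-value, where it called 21.8% of all genes, and 3 by unadjusted p-value, where it called 37.7%. By unadjusted p-value, limma-voom called 3 against 36.7% of all genes, and upper quartile normalization gave 2 against 21.2%. The groups of libraries did not overlap for 1 of the 7 genes tested, Thsd4, which was lower. They did not overlap for 26.8% of all genes, 12.9% lower and 13.9% higher in Nr2e3-/- tumors. Of the 7 tested, 6 had a log2 fold change of Nr2e3-/- over WT below 0 and 1 above it, their median being -0.17 with a range from -1.23 to 0.28, where the median over all genes was 0.01. Thsd4 had the largest difference among the 7. The end of this gene lies 6.27 kb from Nr2e3, and its annotated GENCODE start lies 555 kb farther away. The values of the other 6 lay between -0.37 and 0.28. The design of 3 libraries against 3 allows an exact permutation p-value of no less than 0.1 for a single gene.

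**Figure D1:**
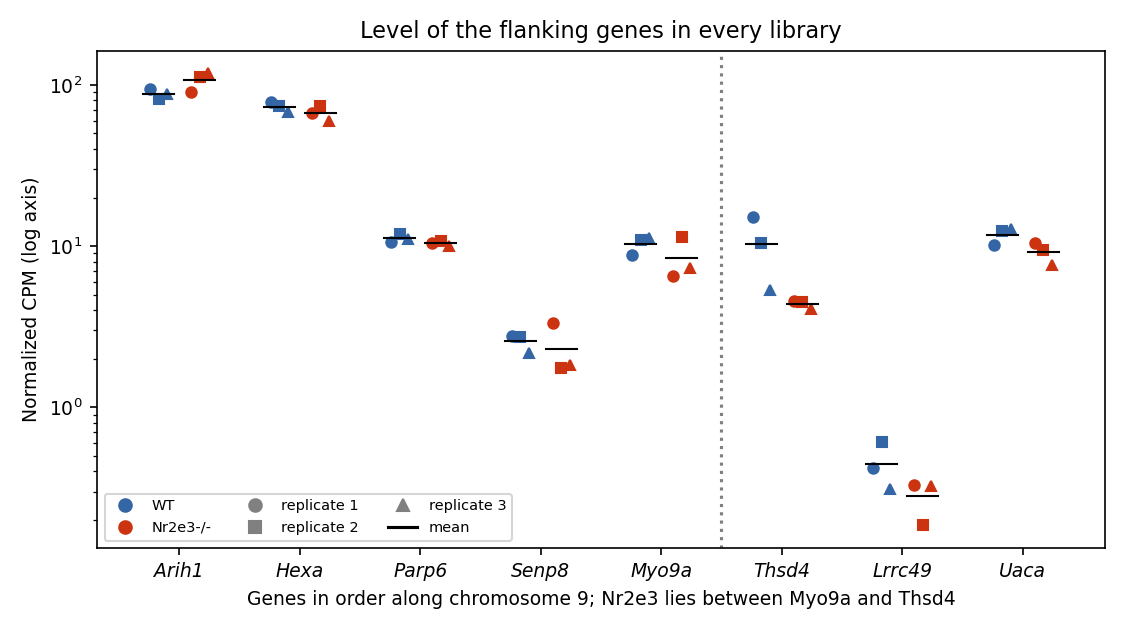
Normalized CPM (log axis) of the 8 flanking genes with more than 7 counts in all, in the 3 WT (blue) and 3 Nr2e3-/- (red) libraries, with marker shapes for replicate numbers and a bar at each mean. Thsd4 ran from 5.34 to 15.2 in WT and from 4.05 to 4.57 in Nr2e3-/- libraries, and the ranges of the other 7 genes overlapped.

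Thsd4 (59966931 to 60522046, minus strand, ENSMUSG00000032289) fills 555 kb on the side of higher coordinates. In normalized CPM it was measured at 15.2, 10.5 and 5.34 in WT replicates 1, 2 and 3. In Nr2e3-/- replicates 1, 2 and 3 it was measured at 4.57, 4.53 and 4.05. All 3 Nr2e3-/- libraries thus lay below all 3 WT libraries, with WT replicate 3 close to the Nr2e3-/- group. The counts behind these values were 395, 310 and 154 in WT and 69, 122 and 75 in Nr2e3-/- libraries. Means were 10.3 ± 4.91 CPM for WT and 4.38 ± 0.285 CPM for Nr2e3-/- libraries (SD, n = 3 each). The log2 fold change was -1.23 (standard error 0.36, 95% confidence interval -2.07 to -0.39), with an unadjusted p = 0.0102 and an adjusted p = 0.136 from edgeR. The exact permutation p-value was 0.1, two-sided. The spread was unequal, with an SD of 47.6% of the mean in WT and 6.50% in Nr2e3-/- tumors, the former the largest among the 7 tested neighbors. The difference was -1.25 without Nr2e3-/- replicate 1, -0.85 without WT replicate 1 and -1.55 without WT replicate 3. DESeq2 gave -1.23 with an adjusted p = 0.0206, and over 13 alternatives the adjusted p-value ranged from 0.0206 to 0.393. Among all genes tested, 288 (2.12%) had a lower log2 fold change than Thsd4.

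Thsd4 starts at more than 1 position. RefSeq (GRCm38.p6) lists a pair of starts inside the gene as GENCODE draws it, and the 250 bases before each are shown because Thsd4 was the neighbor with the largest difference. Neither window holds an annotated exon. Capitals mark AAGTCA, the half-site bound by receptors of the NR2E group, or GGGCGG, the GC box bound by Sp1, on either strand. The first window is chr9:60511036-60511285 and the second chr9:60141221-60141470, both read on the minus strand.
Thsd4 first start: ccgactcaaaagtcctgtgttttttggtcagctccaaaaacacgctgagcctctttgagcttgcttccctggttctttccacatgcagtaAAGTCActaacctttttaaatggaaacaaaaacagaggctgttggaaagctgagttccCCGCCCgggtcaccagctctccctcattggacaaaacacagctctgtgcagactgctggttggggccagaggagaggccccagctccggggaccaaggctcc
Thsd4 second start: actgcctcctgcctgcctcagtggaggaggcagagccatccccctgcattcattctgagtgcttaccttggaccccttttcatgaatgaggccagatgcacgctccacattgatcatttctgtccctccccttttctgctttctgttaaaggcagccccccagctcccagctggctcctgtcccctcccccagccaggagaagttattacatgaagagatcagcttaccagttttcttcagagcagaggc
The first window held 1 half-site and 1 GC box, and the second held neither. Of all 32851 RefSeq promoter windows of 300 bases, 15.1% held AAGTCA and 35.7% held GGGCGG on either strand. Among the 13 windows of the flanking genes, 2 held the half-site (Thsd4 and Lrrc49) and 9 the GC box. These matches are a description of the letters and do not show binding.

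Myo9a (59750896 to 59928866, plus strand) ends 13.9 kb from Nr2e3 and is the nearest of the 10 on the other side. An annotated antisense gene, Gm20275, overlaps it by 102610 bases, and reads of such partners could not be told apart. It was measured at 8.79, 10.9 and 11.3 CPM in WT while Nr2e3-/- replicates 1, 2 and 3 had 6.55, 11.4 and 7.30 CPM. Nr2e3-/- replicate 2 was the highest of all 6 libraries and the other Nr2e3-/- libraries were the lowest, so the groups overlapped. Means were 10.3 ± 1.33 CPM for WT and 8.43 ± 2.63 CPM for Nr2e3-/- libraries (SD, n = 3 each). On the log2 scale the difference was -0.28 with a standard error of 0.23 and a 95% confidence interval from -0.83 to 0.27, and edgeR gave an adjusted p of 0.501. Without Nr2e3-/- replicate 2 the value was -0.57, with an adjusted p = 0.197, and without Nr2e3-/- replicate 1 it was -0.12.

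Senp8 (59734259 to 59750710, minus strand) stands head to head with Myo9a. Their annotated GENCODE starts are 185 bases apart, and the 137 bases at chr9:59750711-59750847 that neither GENCODE nor RefSeq assigns to either gene are shown on the plus strand, since both genes are read away from this stretch.
Senp8 and Myo9a: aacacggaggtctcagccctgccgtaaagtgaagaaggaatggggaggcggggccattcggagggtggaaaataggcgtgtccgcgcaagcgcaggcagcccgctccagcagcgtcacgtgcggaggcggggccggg
This stretch held neither motif, and 67.2% of its bases were G or C. Among the longer RefSeq promoter windows counted above, those with the GC box included windows of both Senp8 and Myo9a. No window of either gene held the half-site. Senp8 was measured at 2.76, 2.74 and 2.18 CPM in WT and at 3.31, 1.74 and 1.84 CPM in Nr2e3-/- libraries. Here Nr2e3-/- replicate 1 was the highest of the 6 libraries and replicates 2 and 3 were the lowest, whereas Myo9a was lowest in Nr2e3-/- replicate 1. Means were 2.56 ± 0.328 CPM for WT and 2.30 ± 0.878 CPM for Nr2e3-/- libraries (SD, n = 3 each). On the log2 scale the difference was -0.17 with a standard error of 0.30 and a 95% confidence interval from -0.88 to 0.53, and the adjusted p from edgeR was 0.753. It moved to -0.51 without Nr2e3-/- replicate 1 and to -0.0023 without Nr2e3-/- replicate 2. Senp8 had 34 to 81 counts per library, the fewest of the 7 tested neighbors.

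Arih1 (59388258 to 59486618, minus strand) was the neighbor with the most counts, and the only tested one with a higher mean in Nr2e3-/- than in WT tumors. Its values were 94.1, 81.7 and 88.3 CPM in WT and 90.2, 112 and 118 CPM in Nr2e3-/- libraries. Nr2e3-/- replicates 2 and 3 were above all WT libraries, and replicate 1 lay among them. Means were 88.0 ± 6.18 CPM for WT and 107 ± 14.6 CPM for Nr2e3-/- libraries (SD, n = 3 each). On the log2 scale the difference was 0.28 with a standard error of 0.13 and a 95% confidence interval from -0.03 to 0.59, and edgeR gave an adjusted p of 0.265. Without Nr2e3-/- replicate 1 the value was 0.39 with an adjusted p = 0.0387 from edgeR, in a fit that called 21.8% of all genes. The adjusted p-value ranged from 0.0387 to 0.567 over 13 alternatives.

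Hexa (59539540 to 59565109, plus strand) had the highest level per kilobase of exon. It was measured at 78.6, 73.7 and 67.6 CPM in WT and at 66.8, 73.4 and 59.95 CPM in Nr2e3-/- libraries. The groups overlapped, and the log2 difference was -0.14 with a standard error of 0.12 and an edgeR adjusted p of 0.511. Its 95% confidence interval, as a fold of Nr2e3-/- over WT, was 0.753 to 1.10. Parp6 (59617284 to 59650285, plus strand) varied least, at 10.6, 11.8 and 11.02 CPM in WT and 10.5, 10.7 and 10.001 CPM in Nr2e3-/- libraries. The log2 difference of Parp6 was -0.10 with a standard error of 0.12 and an edgeR adjusted p of 0.633, and its 95% confidence interval as a fold was 0.766 to 1.13. For both and every other tested neighbor except Thsd4, a 2-fold difference in either direction lay outside the 95% confidence interval with all libraries. Intervals of the fits with a library left out are not given. In these, Senp8 had -0.51 (standard error 0.23) without Nr2e3-/- replicate 1. Myo9a had -0.57 (standard error 0.18) without Nr2e3-/- replicate 2. Tmem202, which overlaps the start of Hexa by 308 bases on the opposite strand, had 25 counts over the 6 libraries.

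Uaca (60794542 to 60880370, plus strand), which encodes a protein linked to the apoptosome, was the most distant member with enough counts on the side of Thsd4, 834 kb from Nr2e3. It was measured at 10.1, 12.4 and 12.8 CPM in WT and at 10.4, 9.39 and 7.62 CPM in Nr2e3-/- libraries. WT replicate 1 lay between Nr2e3-/- replicates 1 and 2, and the groups overlapped. Means were 11.8 ± 1.44 CPM for WT and 9.13 ± 1.40 CPM for Nr2e3-/- libraries (SD, n = 3 each). On the log2 scale the difference was -0.37 with a standard error of 0.17 and a 95% confidence interval from -0.76 to 0.03, and edgeR gave an adjusted p of 0.255. Its unadjusted p-value was under 0.05 in 4 of 13 alternatives, and its adjusted p-value in none, with a range from 0.0787 to 0.561.

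The remaining 3 neighbors did not pass the filter. Lrrc49 (60568859 to 60688158, minus strand), a subunit of the tubulin polyglutamylase complex, had 11, 18 and 9 counts in WT and 5, 5 and 6 in Nr2e3-/- libraries. This is 0.422, 0.609 and 0.312 CPM in WT and 0.331, 0.186 and 0.324 CPM in Nr2e3-/- libraries, and the groups overlapped. Larp6 (60712989 to 60738801, plus strand), an RNA-binding protein of type I collagen transcripts, had 4 counts over the WT and 3 over the Nr2e3-/- libraries, too few to compare. Celf6 (59577917 to 59607292, plus strand), an RNA-binding protein of the CELF family, had 0 counts in all 6 libraries, which allows up to 0.101 to 0.199 CPM, depending on the library.

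Levels of the neighbors were compared per length, as normalized CPM per kilobase of merged exons (FPKM). In WT tumors Hexa had 36.7 ± 2.78 FPKM (SD, n = 3), Arih1 11.4 ± 0.802, Uaca 2.03 ± 0.247 and Parp6 1.44 ± 0.0767, and no library of a gene in this order overlapped the next gene. Myo9a (0.790 ± 0.102), Thsd4 (0.738 ± 0.351) and Senp8 (0.646 ± 0.0827) followed, and the ranges of Myo9a and Thsd4 overlapped, as did those of Thsd4 and Senp8. Lrrc49 had 0.0709 ± 0.0238 FPKM. In Nr2e3-/- tumors the order was the same except that Thsd4, at 0.313 ± 0.0204 FPKM, stood below Senp8 (0.579 ± 0.221), with no overlap between them, while the ranges of Uaca and Parp6 and those of Myo9a and Senp8 overlapped.

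**Figure D2:**
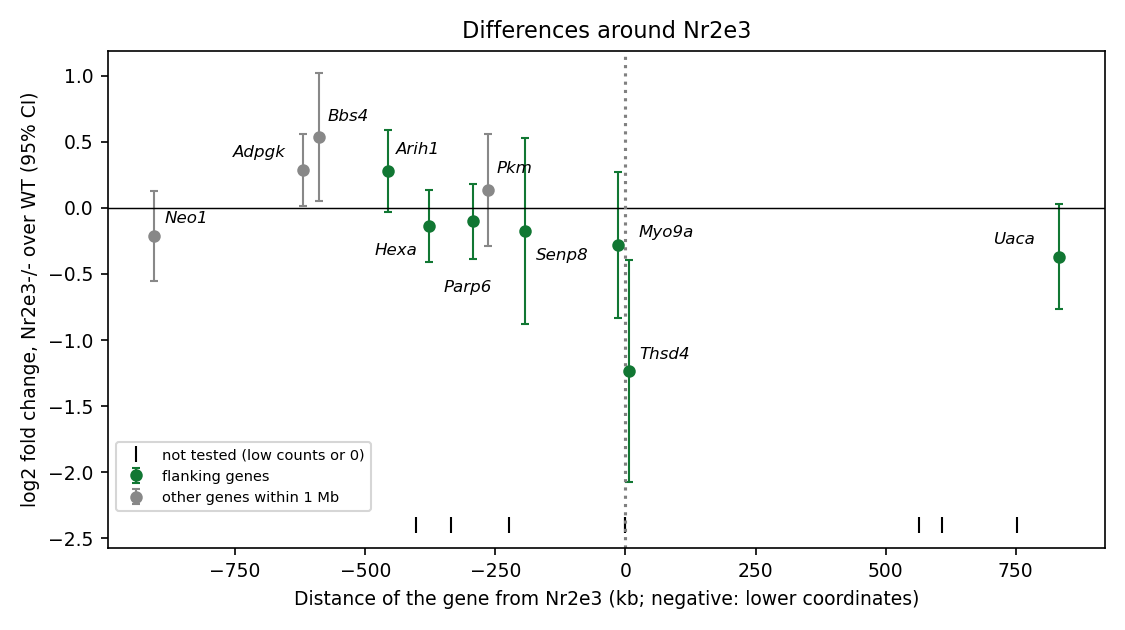
Log2 fold change of Nr2e3-/- over WT with its 95% confidence interval, for the 11 tested genes within 1 Mb of Nr2e3, by distance of the gene from Nr2e3 in kb (green, flanking genes; grey, other genes; ticks, genes not tested). Thsd4 at -1.23 stood lowest, next to Myo9a at -0.28, and Adpgk and Bbs4 on the far side of Arih1 had 0.29 and 0.53.

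Within 1 Mb of Nr2e3 the table lists 19 genes, of which 11 were tested. Besides Thsd4, the genes with an unadjusted p-value under 0.05 were Adpgk, an ADP-dependent glucokinase, and Bbs4, a subunit of the ciliary BBSome. Both lie beyond Arih1, 619 and 589 kb from Nr2e3, and for both the groups did not overlap. With Thsd4, 3 of the 11 tested genes had no overlap (27.3%), against 26.8% of all genes. Adpgk was measured at 17.5, 18.5 and 18.8 CPM in WT and 20.7, 24.8 and 21.3 CPM in Nr2e3-/- libraries (log2 difference 0.29, standard error 0.12, edgeR adjusted p 0.215). Bbs4 was measured at 2.96, 2.37 and 2.36 CPM in WT and 3.18, 3.75 and 4.16 CPM in Nr2e3-/- libraries (log2 difference 0.53, standard error 0.21, edgeR adjusted p 0.201). The genes overlap at their ends on opposite strands, so their reads there could not be told apart. Pkm, which lies with the barely detected Gramd2 between Parp6 and Senp8 and encodes the muscle form of pyruvate kinase, differed by 0.13 on the log2 scale with a standard error of 0.18 and overlapping groups. In order along the chromosome, the log2 differences were -0.21 at Neo1, 906 kb from Nr2e3, above 0 at Adpgk, Bbs4 and Arih1, between -0.28 and 0.13 from Hexa to Myo9a, -1.23 at Thsd4 and -0.37 at Uaca.

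Genes farther from Nr2e3 were counted in the same way. By unadjusted p-value, 3 of 11 tested genes (27.3%) were called within 1 Mb, 17 of 73 (23.3%) between 1 and 5 Mb, 12 of 79 (15.2%) between 5 and 10 Mb and 141 of 586 (24.1%) on the rest of chromosome 9, against 21.5% of all genes. By adjusted p-value under 0.05, edgeR called 0 genes on chromosome 9. Within 10 Mb, DESeq2 called 15 of the 168 genes to which it gave an adjusted p-value (8.93%), where it called 7.93% of all genes, and limma-voom called 26 of 163 (15.95%), where it called 17.4%. The median size of the log2 fold change, without its sign, was 0.28 within 1 Mb, 0.22 between 1 and 5 Mb and 0.27 between 5 and 10 Mb, where it was 0.25 over all genes. Of the 163 genes tested within 10 Mb, 12 had a smaller p-value than Thsd4, and 4 had a lower log2 fold change. These 4, named after their values were seen, were Tnfaip8l3 (-2.36), Calml4 (-1.76), Gm10653 (-1.44) and Pih1d2 (-1.38).

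**Figure D3:**
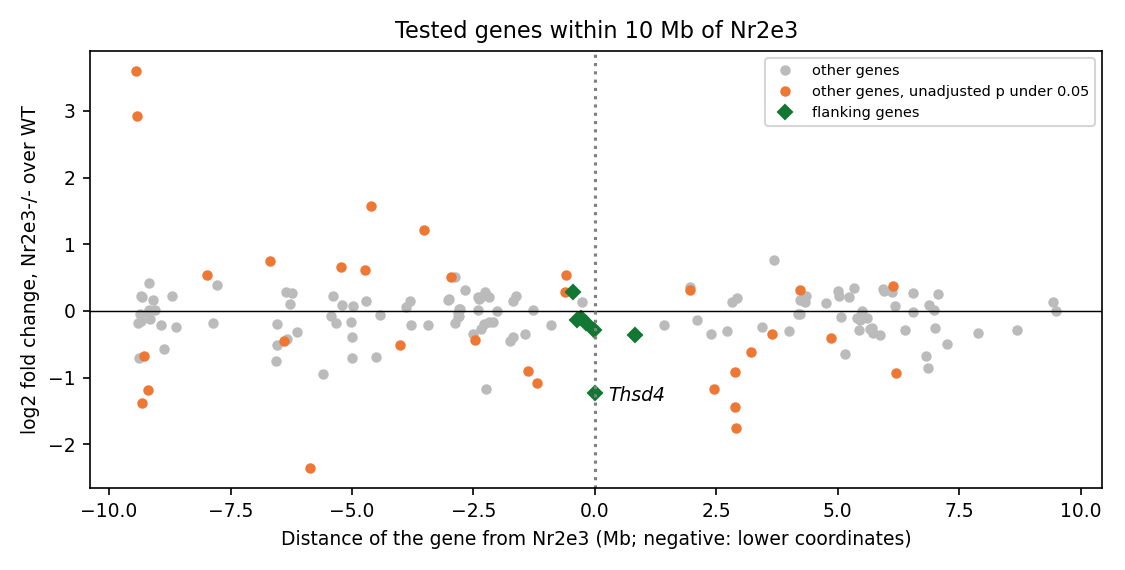
Log2 fold change of Nr2e3-/- over WT for the 163 genes tested within 10 Mb of Nr2e3, by distance from Nr2e3 in Mb (green diamonds, flanking genes; orange, other genes with an unadjusted p-value under 0.05; grey, all others). Thsd4 at -1.23 lies within the range of the window, from -2.36 to 3.60.

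Other genes that work with the neighbors, some of them also on chromosome 9, were examined as lists. Thsd4 was set beside 21 genes of fibrillin microfibrils, the extracellular fibers on which elastin is laid down. Of the 18 tested, 5 were lower and 0 higher in Nr2e3-/- tumors by unadjusted p-value, where 9.72% of all genes were lower and 11.8% higher. Its median log2 difference was -0.40, where 14 genes lay below 0 and 4 above it. The 5 were Ltbp4 (-0.56, standard error 0.23), whose groups overlapped, and Adamtsl1 (-1.31, standard error 0.32), Adamts10 (-0.98, standard error 0.32), Adamtsl5 (-0.85, standard error 0.30) and the elastin gene Eln (-0.84, standard error 0.31), for which they did not. These 4 were 22.2% of the 18. Over all genes, groups did not overlap for 26.8%, with 12.9% lower. None of the 18 passed an adjusted p-value of 0.05 in edgeR or DESeq2, which called 0.0958% and 7.93% of all genes. In limma-voom 5 passed, as did 5 in edgeR without Nr2e3-/- replicate 1, fits that called 17.4% and 21.8% of all genes. Both fits called Fbln5 and did not call Eln. The list summed to between 123 and 132 CPM in WT libraries, and to 124, 75.9 and 71.5 CPM in Nr2e3-/- replicates 1, 2 and 3.

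**Figure D4:**
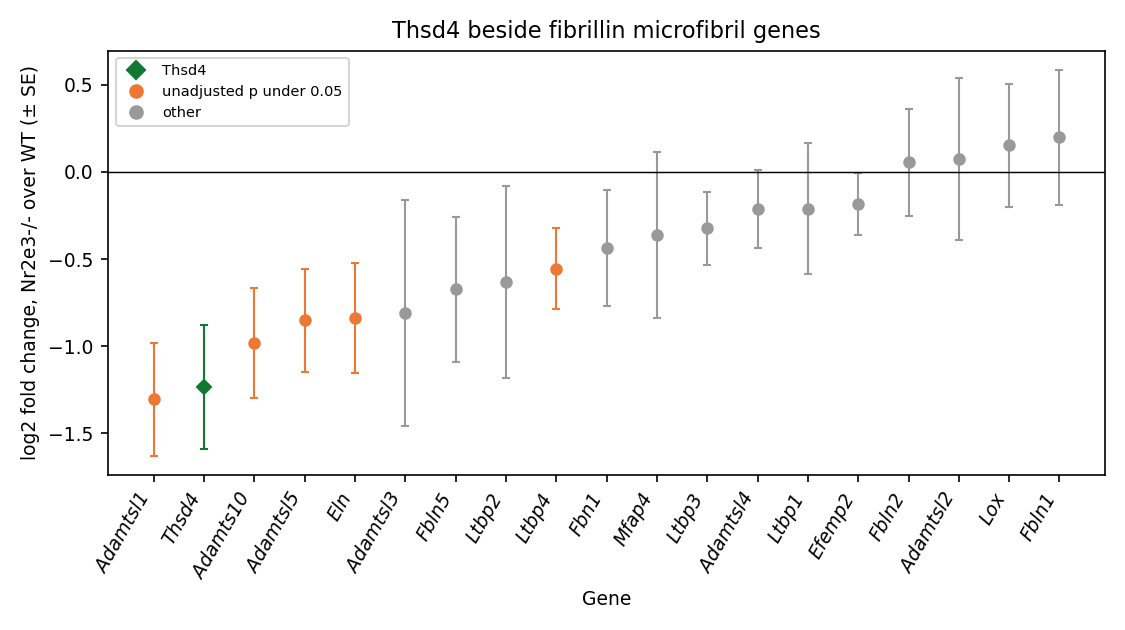
Log2 fold change of Nr2e3-/- over WT with its standard error for Thsd4 (green diamond) and the 18 tested genes of fibrillin microfibrils, ordered by value (orange, unadjusted p-value under 0.05). Thsd4 at -1.23 lies between Adamtsl1 at -1.31 and Adamts10 at -0.98.

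All 8 stellate cell and fibroblast markers (Col1a1, Col1a2, Col3a1, Dcn, Lum, Pdgfrb, Lrat and Des) were measured and none was at 0. They summed to between 249 and 274 CPM in WT libraries and to 285, 164 and 163 CPM in Nr2e3-/- replicates 1, 2 and 3. By unadjusted p-value, edgeR called 0 of the 8, where it called 21.5% of all genes. Log2 differences of the markers were below 0 for 6 and above it for 2, with a median of -0.35. By adjusted p-value, limma-voom called 3 of the 8 (Dcn, Col1a2 and Col3a1), as did edgeR without Nr2e3-/- replicate 1, where these fits called 17.4% and 21.8% of all genes. The microfibril sum and this sum were thus both low in Nr2e3-/- replicates 2 and 3 and not in replicate 1. Ltbp4 gave the largest part of the microfibril sum, at 69.2, 37.7 and 40.0 CPM in Nr2e3-/- replicates 1, 2 and 3. Dcn gave the largest part of the marker sum, at 141, 87.9 and 105 CPM. Adamtsl1, Adamts10, Adamtsl5 and Eln lay below all WT libraries in Nr2e3-/- replicate 1 as well. Thsd4 stood at 4.57 CPM in Nr2e3-/- replicate 1, which had the highest sum of the stellate cell and fibroblast markers. In replicates 2 and 3 Thsd4 stood at 4.53 and 4.05 CPM. The part of stromal cell content in the Thsd4 and microfibril values was not tested. In bulk tissue, fewer cells of a type cannot be told apart from less RNA per cell. Of the other marker lists, endothelial markers summed to between 314 and 329 CPM in WT and 277 and 335 CPM in Nr2e3-/- libraries, smooth muscle markers to between 27.0 and 31.1 and between 27.6 and 35.3 CPM, bile duct markers to between 57.0 and 118 and between 68.8 and 428 CPM, macrophage markers to between 194 and 249 and between 186 and 396 CPM, and red cell markers to between 121 and 166 and between 195 and 263 CPM. Most of the bile duct sum was Spp1, at 107, 46.0 and 47.0 CPM in WT and 56.3, 410 and 171 CPM in Nr2e3-/- libraries. Sox9 and Krt7 had lower means in Nr2e3-/- than in WT tumors, while Epcam and Krt19 had higher means. The log2 difference of Epcam was 1.58 (standard error 0.56, edgeR adjusted p 0.178), with overlapping groups. DESeq2 and limma-voom each called 1 of the 5 bile duct markers, Epcam, against 7.93% and 17.4% of all genes. The endothelial sum held genes with opposite differences, Lyve1 with means of 23.5 CPM in WT and 41.6 CPM in Nr2e3-/- libraries and Kdr with 79.7 and 52.1 CPM, both without overlap between groups. Groups did not overlap for 3 of the 6 endothelial markers, against 26.8% of all genes. The adjusted p-values of Lyve1 and Kdr in edgeR were 0.111 and 0.123. DESeq2 and limma-voom called both, where they called 7.93% and 17.4% of all genes.

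Senp8 and Arih1 were set beside 21 genes of neddylation, the attachment of Nedd8 to cullins. All 21 were tested, and by unadjusted p-value 4 had higher and 0 had lower levels in the knockout, where 11.8% of all genes were higher and 9.72% lower. In either direction 21.5% of all genes were called, and the median log2 difference was 0.11. The 4 were Ube2f (0.59, standard error 0.11), a Nedd8-conjugating enzyme, Dcun1d5 (0.49, standard error 0.16), a ligase cofactor, the cullin Cul1 (0.35, standard error 0.15) and Nedd8 itself (0.26, standard error 0.10). Ube2f was measured at 23.6, 23.7 and 21.9 CPM in WT and at 31.8, 36.0 and 36.3 CPM in Nr2e3-/- libraries, so its groups did not overlap. Its adjusted p-value was 0.0930 in edgeR. By adjusted p-value, edgeR called 0 of the 21, DESeq2 1 (Ube2f) against 7.93% of all genes, and limma-voom 3 against 17.4%. Without Nr2e3-/- replicate 1, edgeR called 5 of the 21 against 21.8% of all genes, the 4 above and Dcun1d4, which differed by -0.36 with all libraries. Of 12 ligases of the type of Arih1, 2 were higher (Rnf144b and Rnf31) and 2 lower (Cul9 and Rnf14) by unadjusted p-value, again against 11.8% and 9.72% of all genes. By adjusted p-value, edgeR called 0 of the 12, DESeq2 1 (Cul9), limma-voom 5 and edgeR without Nr2e3-/- replicate 1 also 5, where these fits called 0.0958%, 7.93%, 17.4% and 21.8% of all genes.

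Lysosomal enzymes that work with Hexa had 2 lower of 15, Arsa (-0.57, standard error 0.13) and Neu1 (-0.46, standard error 0.11), and 0 higher. Myosins and small GTPase regulators beside Myo9a had 1 higher of 17, Myo1e (1.13, standard error 0.24), and 3 lower (Myo6, Myo7a and Myo1d). Myo1e itself lies on chromosome 9, more than 10 Mb from Nr2e3, as does Dcun1d5 of the neddylation list. Collagen genes and their processing enzymes, beside Larp6, had 3 higher (Serpinh1, P4ha2 and P4hb) and 1 lower (Crtap) of 16. None of these was a collagen gene. The log2 differences of the collagen genes themselves ran from -0.57 to -0.32, with overlapping groups. The PARP family had 1 higher (Zc3hav1) and 1 lower (Parp10) of 15, the tubulin ligases beside Lrrc49 1 higher (Ttll4) and 1 lower (Ttll1) of 10, the apoptosome genes beside Uaca 1 higher (Xiap) of 9, and the CELF and muscleblind genes 0 of 6. All these counts are by edgeR's unadjusted p-value, by which 11.8% of all genes were higher and 9.72% lower. Over all lists tied to the neighbors, 28 of 139 genes were called by unadjusted p-value, against 21.5% of all genes. By adjusted p-value, 0 of 139 were called in edgeR, 7 of 139 in DESeq2 against 7.93% of all genes, 23 of 139 in limma-voom against 17.4%, and 28 of 139 in edgeR without Nr2e3-/- replicate 1 against 21.8%. None of these shares exceeded that over all genes.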

How the data were processed

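RNA was sequenced from the liver tumors of 3 WT and 3 Nr2e3-/- mice, with groups taken from the sample titles. The authors made the table of raw counts with TopHat (single-end reads of TruSeq libraries, aligned to mm10, which is GRCm38) and FeatureCounts, and the deposited counts were used as they are. The annotation and strand setting are not given in the sources used here, so reads of genes that overlap on opposite strands could not be told apart. The authors' normalized table, which is the counts times a constant per library, and their table of fold changes and p-values were not used.

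The test was edgeR 4.0.16, run in R 4.3.3 (filterByExpr with a minimum count of 10 and a minimum total of 15, TMM, quasi-likelihood F test, adjusted p-value threshold 0.05). Standard errors and 95% confidence intervals were derived from the F statistic and its degrees of freedom. Exact permutation tests used log2(CPM + 0.1). Alternatives used DESeq2 1.42.0 and limma 3.58.1 among 13 settings, and the code was tested on simulated data. The limma-voom fit used quality weights, which can lower the influence of a library that stands apart. It may thus not be independent of the fit without Nr2e3-/- replicate 1. Positions and exon lengths came from GENCODE mouse release 21, which holds 22754 of the symbols as written and 869 under an older name, while 440 were not found. Promoter sequences came from RefSeq (GRCm38.p6), each window holding 250 bases before and 50 after a start. Tables and figures were made with Python 3.11.15. The neighbors, the lists and the tests were chosen with earlier results of these data known. All 10 neighbors were named. So were other genes within 1 Mb with an unadjusted p-value under 0.05, between Parp6 and Senp8 or overlapping a neighbor. Up to 4 genes per list with an unadjusted p-value under 0.05 were named too. Outside these rules, Ltbp4, Fbln5, Dcun1d4, Neo1 and the markers singled out were named after their values were seen. Replicates came from separate tumors, and nothing says that their numbers pair animals. The result of 1 marker list is not reported here.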

Additional observations from a re-analysis of the deposited data

How the results depend on the processing

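Over the 13 alternatives, every tested neighbor kept the sign of its log2 fold change. The number of flanking genes with an adjusted p-value under 0.05, 0 in the fit reported, was 1 with DESeq2 (Thsd4) and 0 to 1 when single libraries were left out, the 1 being Arih1 without Nr2e3-/- replicate 1. The number with an unadjusted p-value under 0.05, 1 as reported, was 2 with upper quartile normalization, 3 with limma-voom and 1 to 3 without single libraries, the 3 again without Nr2e3-/- replicate 1. The median log2 fold change of the 7 tested neighbors, -0.17 as reported, was -0.34 with limma-voom and between -0.22 and -0.07 without single libraries. Libraries with the same replicate number did not deviate together from their group means in every pair (correlations of -0.07, 0.21 and 0.02 for numbers 1, 2 and 3). With the replicate number as a replicate block, 0 flanking genes passed by adjusted and 1 by unadjusted p-value, the median was -0.21 and Thsd4 had -1.12 (adjusted p = 0.184). In these fits edgeR called 0% to 21.8% of all genes by adjusted p-value with single libraries left out and 12.2% to 37.7% by unadjusted p-value, and 0% and 18.0% with the block. Lrrc49 had at most 18 counts in a library, and Larp6 and Celf6 could not be compared at this depth.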

Other observations

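A long noncoding gene that the rule for named genes does not cover, 9230112J17Rik, lies just upstream of the annotated start of Thsd4 on the same strand and was noticed after its values were seen. It had 18, 8 and 2 counts in WT replicates 1, 2 and 3 and 2, 4 and 2 counts in the Nr2e3-/- libraries, or 0.691, 0.271 and 0.0691 CPM in WT and 0.132, 0.148 and 0.108 CPM in Nr2e3-/- libraries. In WT tumors it was highest in replicate 1 and lowest in replicate 3, as was Thsd4. It did not pass the filter on low counts and was not tested.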
